A study of Mus musculus with 24 samples.

Results

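The TGF-beta and BMP signaling genes described here are 44 genes of the 54752 in the count table, taken by symbol and grouped by role as 13 ligands, 9 receptors, 10 secreted antagonists and latency binders, 8 Smads and 4 Id genes. They were followed in 23 libraries from the ductus arteriosus (DA), the fetal vessel that joins the pulmonary artery to the aorta and closes after birth, and from the ascending aorta of late-gestation mouse embryos. In Prdm6-deficient embryos (Wnt1Cre;PRDM6f/f) the smooth muscle-enriched PR-domain gene Prdm6 was deleted by a Cre driven from the Wnt1 promoter, which is active in neural crest, so that only neural crest-derived cells of each vessel lost it. The groups were control DA (n = 7), Prdm6-deficient DA (n = 5), control aorta (n = 6) and Prdm6-deficient aorta (n = 5). Controls were PRDM6wt/f, except control DA replicate 3 (PRDM6wt/wt) and control DA replicate 2 and control aorta replicate 3, both from 1 embryo that carried the Cre with no floxed allele (Wnt1Cre;PRDM6wt/wt). Prdm6-deficient DA replicates 1 and 2 were pools of 2 embryos each. Many embryos gave both vessels, and all mice were on a C57/Black6 background.

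TGF-beta family ligands are secreted dimers that bind pairs of type I and type II serine/threonine kinase receptors. TGF-beta and activin receptors phosphorylate Smad2 and Smad3, BMP receptors phosphorylate Smad1, Smad5 and Smad9 (also called Smad8), and both kinds of Smad enter the nucleus with Smad4. Noggin, gremlin, chordin-like proteins and follistatin hold ligands away from the receptors, and some latent TGF-beta binding proteins (LTBPs) store TGF-beta in the matrix. Smad6 and Smad7 inhibit the receptors, and the Id genes are direct targets of BMP Smads. In the DA the pathway is known for its part in smooth muscle differentiation and in the matrix-rich intimal cushions that form before closure.

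The upstream stretches of 3 genes are printed because the results below turn most on Grem1, Bmper and Gdf10, the 2 antagonists with the lowest adjusted p-values and the ligand that was higher without Prdm6 in both vessels. They are the 250 bases before the RefSeq start of each gene (GRCm38.p6), read 5′ to 3′ on the strand of the gene, at chr2:113758649-113758898 (minus strand), chr9:23222826-23223075 (plus strand) and chr14:33923337-33923586 (plus strand). Capitals mark matches on either strand to GGCGCC, a GC-rich element described for BMP Smads, or to CAGACG, a Smad3 and Smad4 element.
Grem1: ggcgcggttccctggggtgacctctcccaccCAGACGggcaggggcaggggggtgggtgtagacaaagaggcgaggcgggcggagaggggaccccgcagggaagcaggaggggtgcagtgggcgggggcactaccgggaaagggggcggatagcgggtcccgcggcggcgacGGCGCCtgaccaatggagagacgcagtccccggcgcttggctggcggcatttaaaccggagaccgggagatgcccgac
Bmper: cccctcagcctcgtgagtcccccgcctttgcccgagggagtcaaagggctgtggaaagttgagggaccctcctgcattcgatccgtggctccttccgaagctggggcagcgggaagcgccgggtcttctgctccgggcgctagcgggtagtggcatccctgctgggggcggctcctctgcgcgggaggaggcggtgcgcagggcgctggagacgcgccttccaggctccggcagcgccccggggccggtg
Gdf10: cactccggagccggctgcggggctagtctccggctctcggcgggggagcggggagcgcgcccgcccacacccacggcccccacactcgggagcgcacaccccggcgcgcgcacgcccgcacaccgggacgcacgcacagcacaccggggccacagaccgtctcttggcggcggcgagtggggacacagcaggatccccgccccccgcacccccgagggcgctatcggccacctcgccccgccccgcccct
The Grem1 stretch held 1 match to each of these motifs, whereas the Bmper and Gdf10 stretches held none. RefSeq windows of 300 bases, which run 250 bases before and 50 after a start, were at hand for 31 of the 44 genes (39 windows). GGCGCC was in 13 of the 39 member windows, or 33.3%, against 11.9% of all 32851 windows. CAGACG was in 3 member windows, against 7.35% of all windows. The palindromic Smad element GTCTAGAC was in 1 member window (Smad6), against 0.213% of all. The E-box CANNTG was in 20 member windows (51.3%), against 72.3% of all, and the CArG box bound by serum response factor was in 0, against 1.63%. Both strands were searched, GTCTAGAC and CAGACG share the letters AGAC, windows of 1 gene overlap in part, and a match is a description of the letters and not of binding. Tgfb3, Bmp2, Bmp7, Gdf6, Tgfbr3, Acvrl1, Fst, Nog, Chrdl1, Smad2, Smad4, Smad7 and Id1 had no window.

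The libraries held 15163974 to 22610547 counts (median 19985259), so that a floor of 3 counts corresponded to 0.135 to 0.201 CPM, the depth-scaled count in which all levels are given. CPM were scaled by TMM, a trimmed-mean correction for library composition. Prdm6 itself was at 58.6 to 78.5 CPM in the Prdm6-deficient DA against 84.9 to 128 in the control DA, and at 61.9 to 81.2 against 95.6 to 135 in the aorta, with no overlap in either vessel. The deposited whole-gene counts do not separate the floxed exons from the rest of the gene. The smooth muscle markers Myh11, Acta2, Tagln, Cnn1, Mylk and Myocd summed to 8090 to 22872 CPM over all libraries, and each was present in every group. In markers of other cells 4 control libraries were picked, after the data were seen, as those that stood apart. They were control DA replicate 1 in cardiomyocyte genes (1637 CPM, the highest sum), control DA replicates 2 and 7 in brown fat genes, and control aorta replicate 4 in globins (136480 CPM) and, among control aortas, in melanocyte genes (14.8 CPM). Libraries outside the 4 were also high. Control DA replicate 3 had the highest melanocyte sum (229 CPM) and control DA replicate 4 the highest mesothelium sum (419 CPM). Prdm6-deficient aorta replicate 1 had the highest lymphocyte sum (15.9 CPM). Calls on members, and calls on further pathway genes between genotypes, that were lost without the 4 are named with the gene. Members that gained a call without them are not all named. Prdm6-deficient DA replicate 1 held a globin sum of 137612 CPM (the next in its group was 36148 CPM) and was not among the 4; without it alone 7 members were called in the DA, Chrdl1 and Gdf6 being lost.

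A gene was called changed where edgeR's quasi-likelihood test gave an adjusted p below 0.01 (Benjamini-Hochberg over 16463 tested genes, 2-sided) and the log2 fold change was beyond 0.5 in either direction. Counts at an unadjusted p under 0.05, and calls by 2 other tools (DESeq2 and limma-voom), are given without the share of all tested genes. They mark limits of the edgeR calls and cannot be set against that share. Of the 44 members, 43 passed the filter on low counts. Bmp10, a cardiac BMP ligand, did not: its counts reached at most 5 in the control DA, 0 in the Prdm6-deficient DA, 19 in the control aorta and 30 in the Prdm6-deficient aorta.

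Loss of Prdm6 was accompanied in the DA by lower levels of 5 of the 10 secreted antagonists and latency binders and of 2 of the 4 Id genes. In the Prdm6-deficient DA, 8 members were lower and 1 was higher than in the control DA. Of all tested genes, 2.82% were called lower and 2.61% higher in that comparison. The lower members were the antagonists or binders Grem1, Nog, Bmper, Chrdl1 and Ltbp1, the ligand Gdf6, and Id2 and Id4, and the higher one was the ligand Gdf10. The median log2 fold change was -0.58 over the 10 antagonists and latency binders, -0.33 over the 4 Id genes, -0.17 over the 12 tested ligands, -0.12 over the 8 Smads and 0.27 over the 9 receptors, against 0.01 over all tested genes. By edgeR 0 of the 9 receptors and 0 of the 8 Smads were called in the DA, where DESeq2 and limma-voom also called 0, while 7 receptors and 4 Smads had an unadjusted p under 0.05.

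In the aorta the called members pointed mostly the other way. In the Prdm6-deficient aorta, 7 members were higher and 1 was lower than in the control aorta, against 1.63% of all tested genes called higher and 0.826% called lower. Bmp4, Gdf6, Gdf10, Inhba, Eng, Nog and Ltbp1 were higher, and Inhbb was lower. The ligands had a median log2 fold change of 0.72, with 4 higher and 1 lower, while the medians of the receptors (0.16), antagonists and latency binders (0.06), Smads (0.07) and Id genes (0.13) were closer to 0. The embryo numbers in the labels fall into 2 sets, the first and second series of embryos. The first series held only 1 control aorta, and within the second series alone 5 members were called in the aorta (edgeR). All first-series controls lacked a floxed allele, and all second-series controls were PRDM6wt/f. A difference in effect between the series therefore cannot be told apart from one of control genotype.

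**Figure D1:**
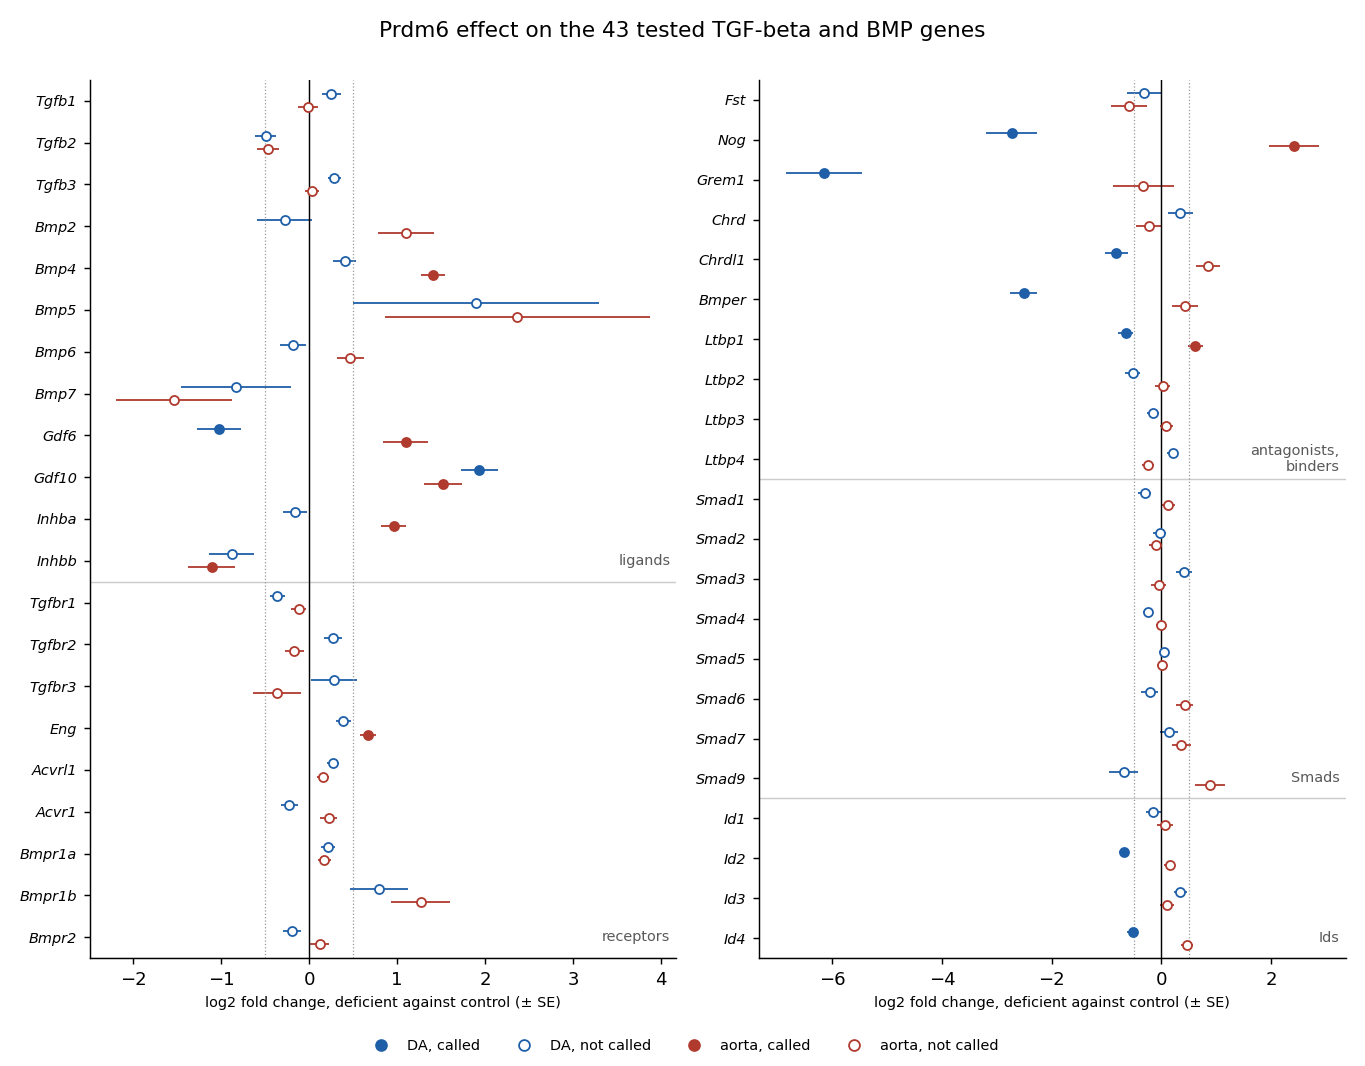
Log2 fold change of each tested member, Prdm6-deficient against control, in the DA (blue) and the aorta (red), with bars of 1 SE, filled points for called members and dotted lines at 0.5 in either direction. The horizontal axis is in log2 units and differs in range between the 2 panels. Grem1, Nog and Bmper lie farthest to the left in the DA, Nog lies farthest to the right in the aorta, and Gdf10 lies to the right in both.

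Grem1 (gremlin 1, chr2:113746164-113758646, mm10), which binds BMP2, BMP4 and BMP7, had the largest drop of any tested member in the DA. Its level in the control DA was 18.8 CPM at the lowest, 23.7 at the median and 45.6 at the highest. In Prdm6-deficient DA replicates 1, 2, 5, 6 and 7 it was 0, 1.36, 0, 0.517 and 0.196 CPM. No Prdm6-deficient DA came near any control, and in 2 of them no read was counted at all. The log2 fold change was -6.15 ± 0.70 (SE), a 71.3-fold lower level (adjusted p = 4.7e-07), although with only 0 to 24 reads per Prdm6-deficient DA library the size of so large a fold is imprecise. It was -7.64 among the embryos of the first series of animal numbers and -5.16 among those of the second. In the control aorta Grem1 was at 0.606, 1.38 and 6.84 CPM (lowest, median and highest), and in Prdm6-deficient aorta replicates 1 to 5 at 1.64, 1.65, 2.59, 1.86 and 1.61 CPM. The genotypes overlapped there (log2 fold change -0.33 ± 0.55, adjusted p = 0.92). The highest control aorta value belonged to replicate 4, one of the 4 libraries that stood apart. Replicate 4 was also the highest control aorta for Bmper (37.8 CPM), Nog (1.30), Chrdl1 (9.69), Ltbp1 (313) and Id2 (159). It was not the highest for the other members called higher in the control DA. Grem1 was 12.5-fold higher in the control DA than in the control aorta (log2 fold change 3.64 ± 0.54, adjusted p = 2.1e-05), and the difference was 4.34 without control aorta replicate 4.

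Bmper (chr9:23223076-23485200), a chordin-type extracellular protein that binds BMPs, was the antagonist with the lowest adjusted p in the DA. It ranged from 97.6 to 202 CPM in the control DA (median 126). Prdm6-deficient DA replicates 1, 2, 5, 6 and 7 held 27.7, 20.7, 26.9, 24.8 and 18.4 CPM. The lowest control DA was far above the highest Prdm6-deficient DA, and the level was 5.70-fold lower (log2 -2.51 ± 0.25, adjusted p = 6.8e-08). Within the 2 series of embryos the log2 fold change was -2.50 and -2.73. The control aorta held 10.6, 16.7 and 37.8 CPM (lowest, median, highest), and the Prdm6-deficient aorta 21.7, 22, 29.6, 31.4 and 28.6 CPM. The aortas overlapped (log2 0.43 ± 0.24, adjusted p = 0.49), and the levels of the Prdm6-deficient DA lay within their range. The control DA was 6.82-fold above the control aorta (log2 2.77 ± 0.24, adjusted p = 5.0e-09).

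Nog (noggin, chr11:89300638-89302332), a single-exon gene for a high-affinity BMP antagonist, moved in opposite directions in the 2 vessels. The control DA was at 4.74, 7.42 and 11.5 CPM (lowest, median, highest), and Prdm6-deficient DA replicates 1, 2, 5, 6 and 7 at 0.935, 0.454, 1.33, 2.59 and 0.393 CPM. In the control aorta it was at 0.240, 0.933 and 1.30 CPM, and in Prdm6-deficient aorta replicates 1 to 5 at 3.76, 3.02, 6.28, 4.98 and 4.83 CPM. The genotypes did not overlap in either vessel: without Prdm6, Nog was 6.62-fold lower in the DA (log2 -2.73 ± 0.47, adjusted p = 0.00015) and 5.36-fold higher in the aorta (log2 2.42 ± 0.45, adjusted p = 0.00088). The DA value was -2.15 in the first series of embryos, where it did not pass the test (adjusted p = 0.11), and -4.17 in the second, and the aorta value was 2.13 and 2.33. Nog was low throughout, with 8 to 45 reads in the Prdm6-deficient DA libraries.

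Chrdl1 (chordin-like 1, on the X chromosome) was lower in the Prdm6-deficient DA by a smaller margin. It was at 15.5, 22.1 and 33.5 CPM in the control DA (lowest, median, highest) and at 15.3, 10.6, 13.0, 12.8 and 11.6 CPM in Prdm6-deficient replicates 1, 2, 5, 6 and 7. The highest Prdm6-deficient DA and the lowest control DA nearly touched, and the log2 fold change was -0.82 ± 0.21 (adjusted p = 0.0092). That call is fragile: leaving out single libraries ended it for 17 of the 23, with log2 fold changes between -0.90 and -0.70 over all of these fits, and it was also lost without the 4 libraries that stood apart. In the aorta Chrdl1 held 5.95, 6.30 and 9.69 CPM in controls against 6.89, 13.0, 17.4, 13.4 and 12.1 CPM, a difference that did not pass the test (log2 0.85 ± 0.22, adjusted p = 0.017). The control DA was 3.21-fold above the control aorta (log2 1.68 ± 0.21, adjusted p = 1.2e-06).

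Ltbp1 (chr17:75005568-75392512), which tethers latent TGF-beta to the matrix, was lower in the Prdm6-deficient DA and higher in the Prdm6-deficient aorta. Control DA levels ran from 466 to 775 CPM with a median of 522, and Prdm6-deficient DA replicates 1, 2, 5, 6 and 7 held 435, 337, 459, 357 and 313 CPM. Control aorta levels ran from 228 to 313 CPM with a median of 245, and Prdm6-deficient aortas held 441, 372, 379, 345 and 424 CPM. Neither pair of groups overlapped, and the 2 Prdm6-deficient groups overlapped each other at levels between those of the 2 control groups. The log2 fold change was -0.65 ± 0.13 in the DA (adjusted p = 0.00098, with -0.58 and -0.85 within the 2 series of embryos) and 0.62 ± 0.13 in the aorta (adjusted p = 0.0037, with 0.51 and 0.69). The aorta call was lost without Prdm6-deficient aorta 1 or 5 or without control aorta 1, 2 or 6, with values of 0.57 to 0.60.

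**Figure D2:**
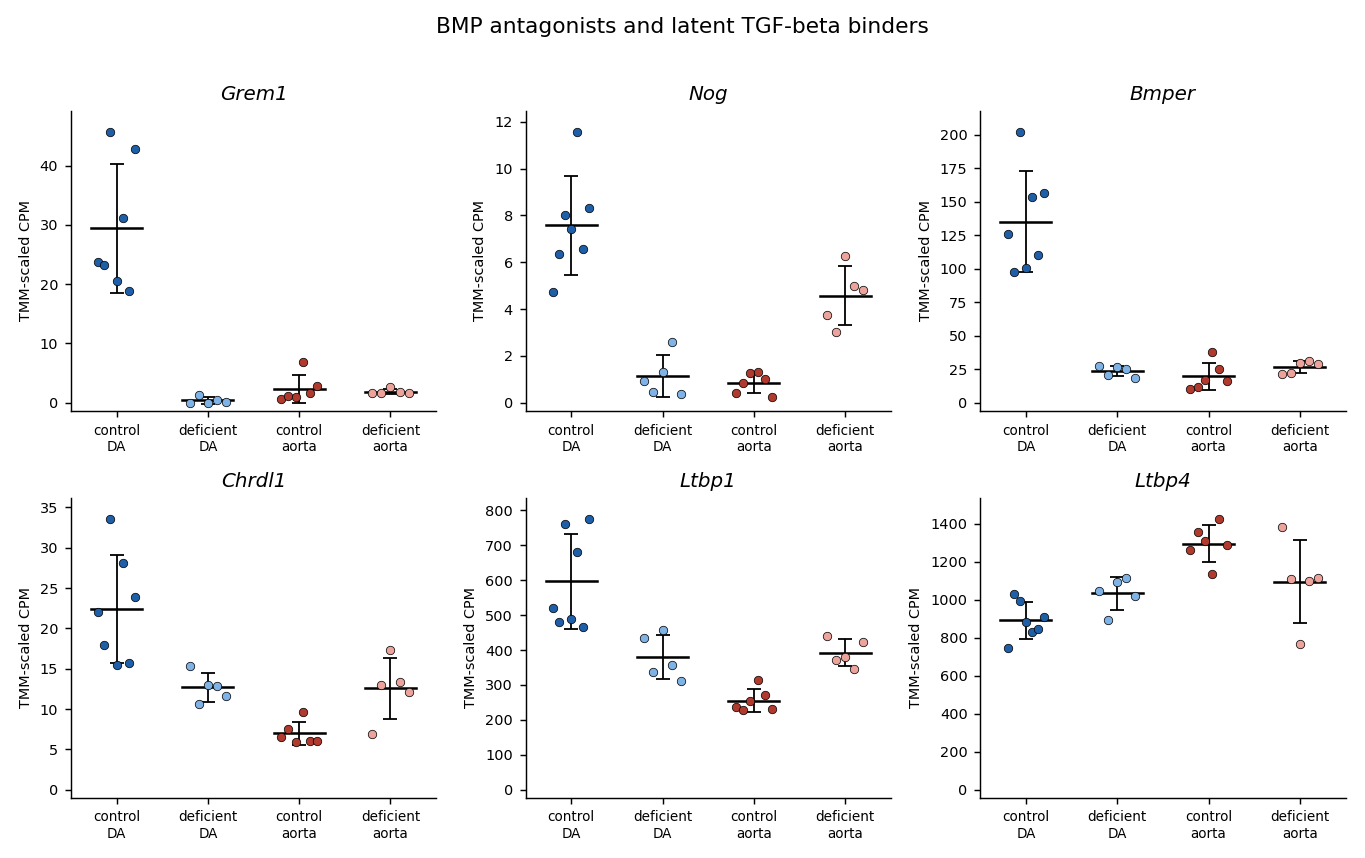
Levels in CPM (TMM-scaled) of Grem1, Nog, Bmper, Chrdl1, Ltbp1 and Ltbp4 in every library of the 4 groups, with the group mean as a bar and the SD as an error bar. In Grem1 and Bmper the control DA stands alone above the other 3 groups, whereas in Nog and Ltbp1 the genotype difference runs down in the DA and up in the aorta.

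EdgeR called none of the remaining antagonist and LTBP genes between genotypes. Ltbp4, which binds TGF-beta1 and elastic fibers, had means of 892 ± 98.7 CPM in the control DA (SD), 1034 ± 85.7 in the Prdm6-deficient DA, 1296 ± 97.4 in the control aorta and 1096 ± 219 in the Prdm6-deficient aorta, and was called only between the control vessels, where it was lower in the DA (log2 -0.54 ± 0.10, adjusted p = 0.0002). Ltbp2 in the DA lay at the edge of the rule (log2 -0.52 ± 0.13, adjusted p = 0.0101), with 456 ± 99.1 CPM in controls against 318 ± 80.8, and DESeq2 and limma-voom called it. Ltbp3 (483 to 544 CPM as group means), the chordin gene Chrd (10.4 to 13.3 CPM) and the activin antagonist Fst (5.99 to 11.7 CPM) gave adjusted p-values of 0.40 or more in both genotype comparisons.

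Among the ligands, Gdf10 (chr14:33923587-33937983; also called BMP3B) was the only member called higher in both vessels. The control DA held 28.0, 63.5 and 85.5 CPM (lowest, median, highest), and Prdm6-deficient DA replicates 1, 2, 5, 6 and 7 held 248, 185, 295, 212 and 185 CPM. The control aorta held 70.4, 89.7 and 123 CPM, and Prdm6-deficient aortas 264, 197, 356, 225 and 279.7 CPM. The lowest Prdm6-deficient sample of either vessel exceeded the highest control of both. The level was 3.82-fold higher in the DA (log2 1.93 ± 0.21, adjusted p = 2.4e-07) and 2.88-fold higher in the aorta (log2 1.53 ± 0.22, adjusted p = 2.9e-05), and the difference between these effects did not pass the test (log2 0.41 ± 0.30, adjusted p = 0.60). Within the 2 series of embryos the effect was 1.92 and 1.72 in the DA and 1.25 and 1.53 in the aorta.

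Bmp4 (chr14:46383520-46390669), a BMP ligand of the outflow tract and its vessels, rose in the aorta. Control aortas held 86.2, 97.3 and 130.3 CPM (lowest, median, highest) and Prdm6-deficient aortas 272, 264, 297, 238 and 303 CPM. These groups were well apart (2.66-fold higher, log2 1.41 ± 0.14, adjusted p = 8.8e-08), with 1.48 and 1.42 in the 2 series of embryos. In the DA the control levels of 104, 147 and 234 CPM overlapped those of the Prdm6-deficient replicates (191, 203, 231, 209 and 185 CPM), and the log2 fold change of 0.41 ± 0.13 did not pass the test (adjusted p = 0.041). Bmp4 was higher in the control DA than in the control aorta (log2 0.57 ± 0.13, adjusted p = 0.0024), a call lost without control DA replicate 6, its highest library (0.44).

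Inhba, which encodes the activin A subunit, also rose in the aorta alone by the call rule. Its control aorta levels were close together at 95.7, 99.8 and 109 CPM (lowest, median, highest), and the Prdm6-deficient aortas held 175, 144, 242, 172 and 248 CPM. The groups were separate (1.95-fold higher, log2 0.96 ± 0.14, adjusted p = 3.5e-05), with 1.12 and 0.89 in the 2 series of embryos. In the DA, controls at 133, 162 and 182 CPM overlapped Prdm6-deficient replicates at 168, 126, 176, 148 and 92.9 CPM (log2 -0.16 ± 0.13, adjusted p = 0.55). The control DA was 1.57-fold above the control aorta (log2 0.65 ± 0.13, adjusted p = 0.00076); without the 4 libraries that stood apart this call was lost.

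Gdf6, a BMP ligand of joints and other mesenchyme, showed the same opposite signs in the 2 vessels as Nog, at a low level. It was at 8.59, 10.9 and 17.2 CPM in the control DA (lowest, median, highest), and at 5.36, 3.92, 7.24, 7.19 and 5.64 CPM in the Prdm6-deficient DA. In the aorta it was at 2.99, 7.27 and 8.58 CPM in controls and at 14.8, 19.3, 12.1, 8.70 and 16.2 CPM without Prdm6. Neither comparison had overlapping groups, and the changes were of like size and opposite sign (DA log2 -1.02 ± 0.25, adjusted p = 0.0066; aorta log2 1.10 ± 0.25, adjusted p = 0.0072). Both calls are fragile. The DA call was lost without any of 6 libraries (Prdm6-deficient DA 1, 2 or 7, control DA 4, 5 or 7), with values of -1.03 to -0.91, and the effect was -0.50 in the first series of embryos and -1.44 in the second. The aorta effect was 0.80 and 1.31 in the 2 series, and the call was lost without any of 9 libraries (Prdm6-deficient aorta 1, 2, 3 or 5, control aorta 1 to 5), and without the 4 libraries that stood apart.

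Inhbb, the activin B subunit gene, was the one member called lower in the Prdm6-deficient aorta. It held 8.93, 15.1 and 18.5 CPM in control aortas and 5.30, 9.07, 5.73, 5.35 and 8.49 CPM in Prdm6-deficient ones, and the groups overlapped by 1 library of each. The log2 fold change was -1.11 ± 0.26 at the very edge of the rule (adjusted p = 0.0099), and leaving out any of 17 single libraries ended the call. It was also lost without the 4 libraries that stood apart (log2 -1.13, adjusted p = 0.026), by limma-voom and with a replicate block. Within the 2 series of embryos it was -0.68 and -1.05. In the DA, controls at 9.03, 13.4 and 17.7 CPM stood beside Prdm6-deficient replicates at 8.29, 2.61, 7.15, 7.65 and 10.1 CPM (log2 -0.88 ± 0.26, adjusted p = 0.023).

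The TGF-beta ligands themselves were not called in any comparison. Tgfb1 held 34.4, 38.7 and 41.7 CPM in the control DA (lowest, median, highest), 37.7, 37.7, 56.3, 44.2 and 51.5 CPM in the Prdm6-deficient DA, 32.6, 42.5 and 49.1 CPM in the control aorta, and 40.2, 45.1, 43.2, 39.7 and 38.9 CPM in the Prdm6-deficient aorta. All 4 groups overlapped, and the log2 fold change was 0.25 ± 0.11 in the DA (adjusted p = 0.14) and -0.01 ± 0.11 in the aorta (adjusted p = 0.997). Tgfb2 was 152 ± 24.5 CPM in the control DA and 108 ± 5.36 in the Prdm6-deficient DA, without overlap, and missed the rule by its size alone (log2 -0.49 ± 0.12, adjusted p = 0.0051); its value in the aorta was -0.47 ± 0.12 (adjusted p = 0.02). Tgfb3 had group means of 117 to 143 CPM and a log2 fold change of 0.29 ± 0.08 in the DA (adjusted p = 0.013). Bmp2 was at 6.03 ± 1.45 CPM in the control aorta and 13.0 ± 1.44 in the Prdm6-deficient aorta with no overlap, but did not pass the test (adjusted p = 0.04). Bmp6 (group means of 114 to 159 CPM), Bmp7 (2.44 to 7.07 CPM) and Bmp5 (0.107 to 0.707 CPM, with many libraries at 0) were not called either.

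**Figure D3:**
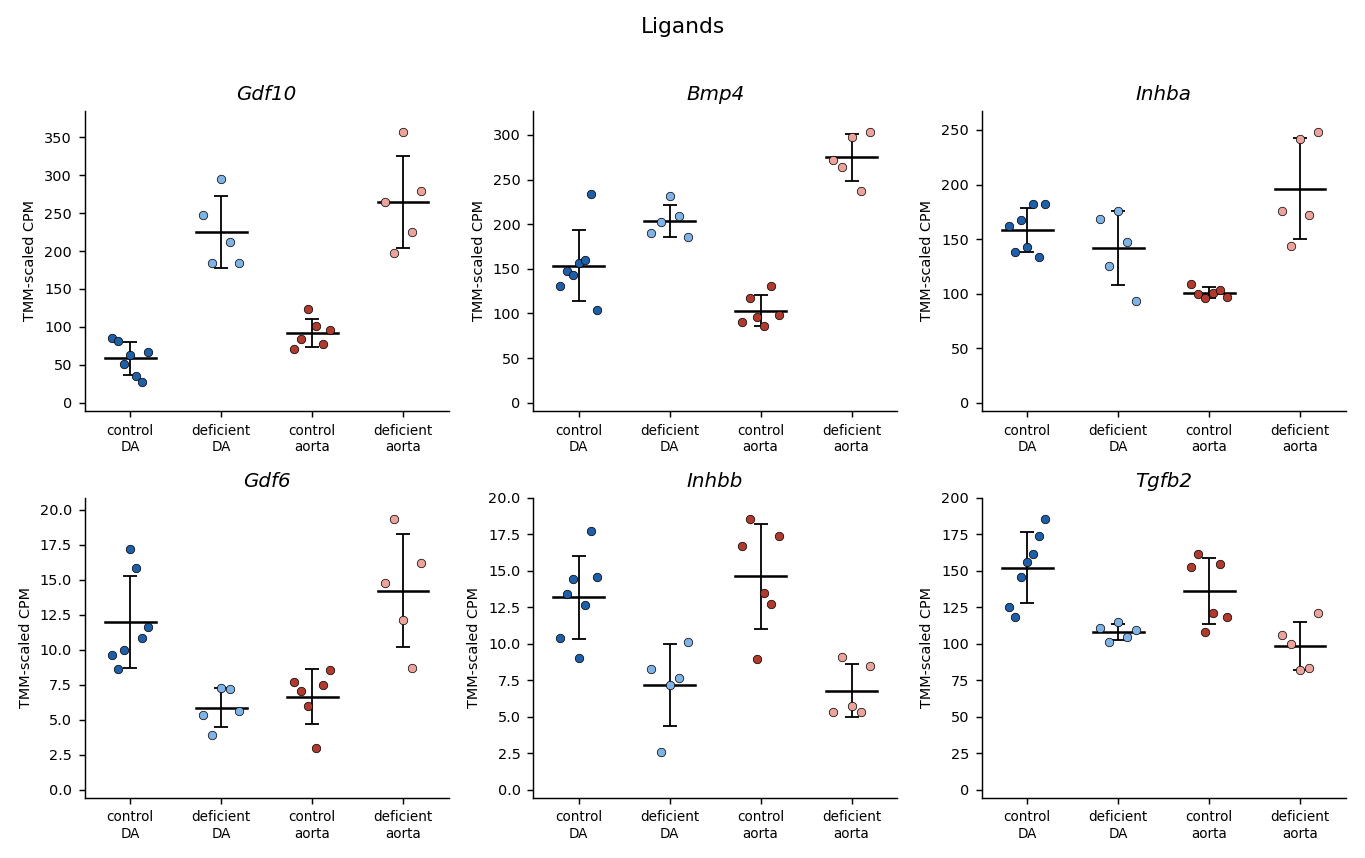
Levels in CPM (TMM-scaled) of the ligand genes Gdf10, Bmp4, Inhba, Gdf6, Inhbb and Tgfb2 in every library of the 4 groups, with the group mean as a bar and the SD as an error bar. Gdf10 is higher in both Prdm6-deficient groups, Bmp4 and Inhba are highest in the Prdm6-deficient aorta, and Gdf6 is lower in the Prdm6-deficient DA and higher in the Prdm6-deficient aorta.

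EdgeR called 1 of the receptors between genotypes. Eng (endoglin, chr2:32646595-32682669), a TGF-beta and BMP9 co-receptor found mainly on endothelium, was at 88.7, 107 and 119 CPM in control aortas (lowest, median, highest) and at 181, 156, 177, 145 and 175 CPM in Prdm6-deficient aortas, with no overlap (1.60-fold higher, log2 0.68 ± 0.09, adjusted p = 1.3e-05, with 0.44 and 0.75 in the 2 series of embryos). In the DA it held 88.3, 102 and 121 CPM in controls and 119, 124, 144, 158 and 139 CPM without Prdm6. Here only the highest control crossed the lowest Prdm6-deficient replicate, and the log2 fold change of 0.39 ± 0.09 was past the adjusted p (0.0029) and short of the size the rule asks for. The summed level of 10 endothelial markers moved in the same direction, from 728 to 1140 CPM in the control aorta to 1190 to 1412 CPM without Prdm6 (Tek, Tie1 and Emcn called higher), and from 890 to 1202 to 1005 to 1441 CPM in the DA (Cldn5 called higher). Its part in the Eng result was not tested, and in bulk tissue a change in the number of cells of a type and a change in RNA per cell cannot be told apart.

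Acvr1 (ALK2), a type I BMP receptor, was the receptor that differed between the control vessels. The control DA held 51.6, 67.5 and 81.6 CPM (lowest, median, highest) and the control aorta 42.6, 43.8 and 47.8 CPM, with no overlap (1.5-fold higher, log2 0.59 ± 0.09, adjusted p = 4.2e-05). The Prdm6-deficient DA held 53.4, 64.5, 53.0, 61.1 and 56.7 CPM and the Prdm6-deficient aorta 58.9, 49.0, 42.9, 52.6 and 58.5 CPM. These overlapped each other and their controls, and neither genotype comparison passed the test (adjusted p = 0.14 and 0.28).

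Tgfbr1, the type I TGF-beta receptor, was at 85.7, 101 and 110.4 CPM in the control DA and at 77.9, 87.3, 65.8, 74.8 and 74.0 CPM in the Prdm6-deficient DA, whereas the control aorta held 67.3, 73.3 and 85.0 CPM and the Prdm6-deficient aorta 71.9, 58.1, 69.8, 77.0 and 67.4 CPM. The DA effect passed the adjusted p and not the size (log2 -0.36 ± 0.08, adjusted p = 0.0041). Tgfbr2, its type II partner, held 71.3, 86.4 and 126 CPM in the control DA, 115, 109.6, 98.3, 120.1 and 121 CPM in the Prdm6-deficient DA, 104, 125 and 134 CPM in the control aorta and 108, 117, 108, 109 and 107 CPM in the Prdm6-deficient aorta. The 2 highest control DA values were those of replicates 1 and 2, which stood apart in markers of heart and brown fat. These 2 also had the highest fibroblast sums (4729 and 4750 CPM) and macrophage sums (188 and 236 CPM) of the control DA. The part of any of these cells in the Tgfbr2 values was not tested. The log2 fold change in the DA was 0.28 ± 0.10 (adjusted p = 0.082), and 0.50 and called once the 4 libraries were left out.

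Bmpr2, the type II BMP receptor, held 77.6, 86.2 and 105 CPM in the control DA, 76.3, 69.6, 79.3, 81.1 and 80.4 CPM in the Prdm6-deficient DA, 62.7, 70.4 and 79.5 CPM in the control aorta and 95.4, 75.6, 53.1, 85.8 and 75.7 CPM in the Prdm6-deficient aorta. All groups overlapped (adjusted p = 0.27 in the DA and 0.77 in the aorta). Of the others, Acvrl1 (ALK1, an endothelial type I receptor) was at 77.9 ± 5.87 CPM in the control DA and 93.9 ± 5.25 in the Prdm6-deficient DA without overlap (log2 0.27 ± 0.07, adjusted p = 0.011). Bmpr1b was at 9.69 ± 2.96 CPM in the control aorta and 23.4 ± 2.10 in the Prdm6-deficient aorta, also without overlap (log2 1.27 ± 0.34, adjusted p = 0.022), and was called by DESeq2 and limma-voom. Bmpr1a (group means of 178 to 221 CPM) and Tgfbr3 (10.4 to 15.5 CPM) gave no call.

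In edgeR, DESeq2 and limma-voom alike, 0 of the 8 Smad genes were called between genotypes in either vessel. An unadjusted p under 0.05 was reached by 4 in the DA and 3 in the aorta. EdgeR called 3 Smad genes between the control vessels. Smad9, a BMP receptor-activated Smad, held 15.5, 21.5 and 31.5 CPM in the control DA and 5.32, 8.48 and 16.8 CPM in the control aorta (log2 1.28 ± 0.25, adjusted p = 0.00077), overlapping through control DA 1 and control aorta 5. Without Prdm6 it held 9.47, 7.44, 18.7, 19.5 and 15.7 CPM in the DA (log2 -0.69 ± 0.26, adjusted p = 0.097) and 17.9, 15.5, 14.4, 21.5 and 17.9 CPM in the aorta (log2 0.89 ± 0.27, adjusted p = 0.054). The Prdm6-deficient groups overlapped, although Prdm6-deficient DA replicates 1 and 2 lay below every Prdm6-deficient aorta. Neither genotype comparison passed the test.

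Smad6, the inhibitory Smad of the BMP branch, was at 162, 200.2 and 290.1 CPM in the control DA and at 105, 129 and 216 CPM in the control aorta (log2 0.57 ± 0.14, adjusted p = 0.0078). Leaving out any of 15 single libraries ended that call. The Prdm6-deficient DA held 153, 160.4, 241, 182 and 173 CPM and the Prdm6-deficient aorta 198, 182, 194, 197 and 183 CPM. Smad3, which carries TGF-beta and activin signals, was lower in the control DA (14.4, 24.5 and 29.2 CPM) than in the control aorta (28.2, 35.1 and 37.9 CPM; log2 -0.56 ± 0.13, adjusted p = 0.0042), with overlap through 1 library of each group, and the call was lost without control DA 3 or control aorta 2, 3 or 5. It held 28.0, 33.9, 31.7, 29.0 and 31.3 CPM in the Prdm6-deficient DA (log2 0.41 ± 0.14, adjusted p = 0.051) and 34.9, 30.2, 25.8, 43.7 and 30.4 CPM in the Prdm6-deficient aorta. Group means of the other Smads lay within narrow ranges, 26.1 to 32.2 CPM for Smad1, 38.9 to 41.8 for Smad2, 58.4 to 68.8 for Smad4, 78.7 to 81.1 for Smad5 and 67.7 to 87.9 for the inhibitory Smad7.

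Id2 (chr12:25093799-25097140) and Id4 (chr13:48261228-48266026), inhibitors of basic helix-loop-helix factors, were lower in the Prdm6-deficient DA. Id2 was at 236, 305 and 376 CPM in the control DA (lowest, median, highest) and at 196, 178, 207, 181 and 178 CPM in Prdm6-deficient replicates 1, 2, 5, 6 and 7. The groups were separate (1.60-fold lower, log2 -0.68 ± 0.10, adjusted p = 1.6e-05), with -0.48 in the first series of embryos and -0.82 in the second. In the aorta it held 114, 130.3 and 159 CPM in controls and 131, 137, 169.9, 154 and 144 CPM without Prdm6 (log2 0.15 ± 0.10, adjusted p = 0.59). All Prdm6-deficient DA samples remained above all Prdm6-deficient aortas, though that comparison did not pass the test (log2 0.35 ± 0.10, adjusted p = 0.13).

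Id4 was at 76.9, 85.7 and 110.4 CPM in the control DA and at 62.8, 55.1, 72.4, 60.8 and 59.7 CPM in the Prdm6-deficient DA, again without overlap (log2 -0.52 ± 0.10, adjusted p = 0.00081). Its size was close to the rule: the call was lost without Prdm6-deficient DA 2 or control DA 5 or 6 (-0.49 to -0.47) and without the 2 pooled libraries, and the effect was -0.32 and -0.69 within the 2 series of embryos. In the aorta it held 40.7, 44.6 and 49.3 CPM in controls and 74.0, 55.7, 57.2, 70.5 and 52.1 CPM without Prdm6. Those groups did not overlap, and the change passed the adjusted p but fell short of the size (log2 0.47 ± 0.11, adjusted p = 0.0061).

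Id1, a classic BMP target, did not follow them. It was at 99.8, 113 and 155 CPM in the control DA, 102, 107, 117, 138 and 91.7 CPM in the Prdm6-deficient DA, 68.3, 77.6 and 102 CPM in the control aorta, and 80.3, 69.8, 123, 73.0 and 84.6 CPM in the Prdm6-deficient aorta. Genotypes overlapped in both vessels (adjusted p = 0.61 and 0.95), and the control DA was higher than the control aorta (log2 0.58 ± 0.13, adjusted p = 0.0037), a call lost without control DA 5 or control aorta 1, 3 or 6 (0.53 to 0.54). Id3 had group means of 591 ± 105, 753 ± 93.7, 572 ± 77.3 and 618 ± 124 CPM in the control DA, Prdm6-deficient DA, control aorta and Prdm6-deficient aorta, and its DA value of 0.35 ± 0.12 (log2) ran opposite to that of Id2 and Id4 without passing the test (adjusted p = 0.067).

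**Figure D4:**
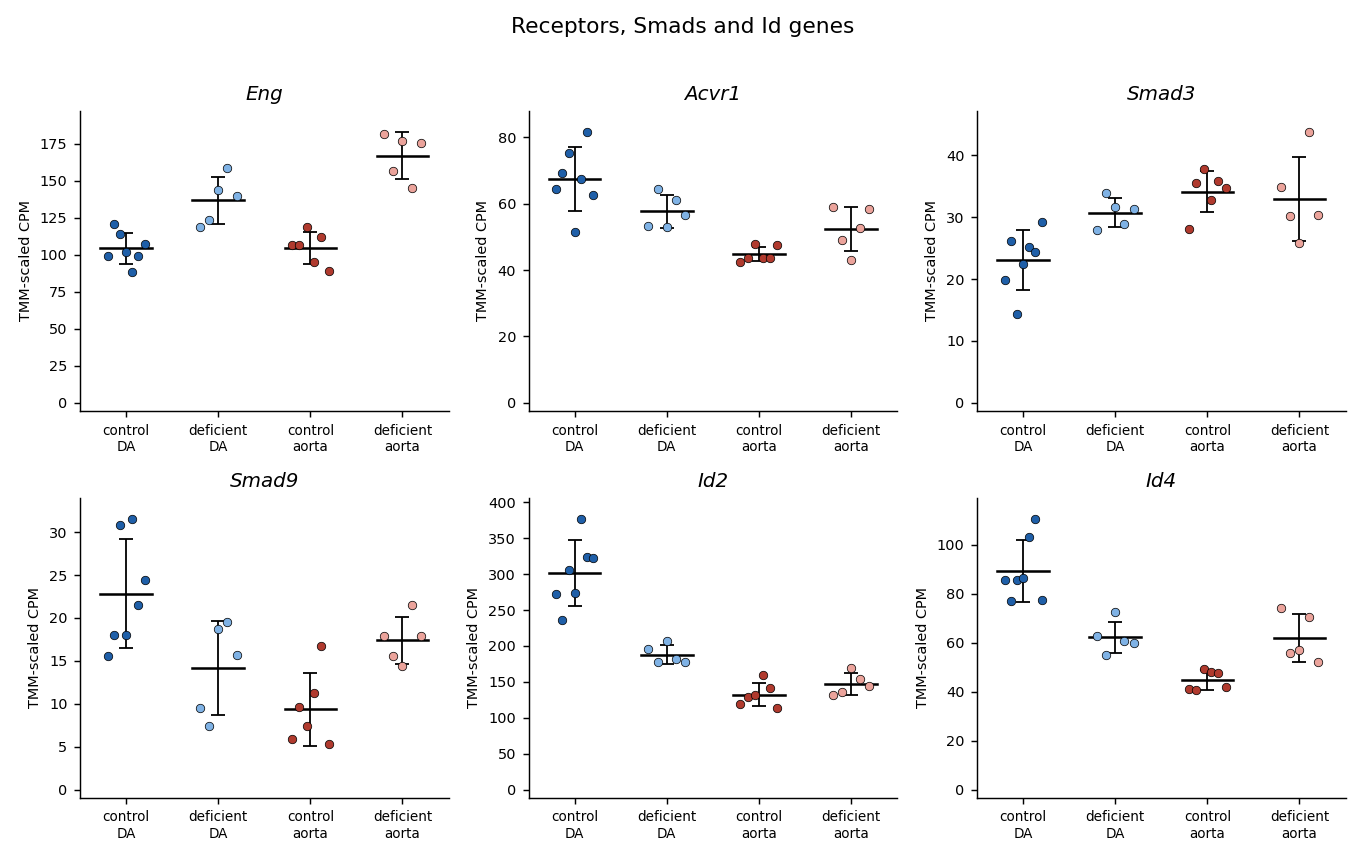
Levels in CPM (TMM-scaled) of Eng, Acvr1, Smad3, Smad9, Id2 and Id4 in every library of the 4 groups, with the group mean as a bar and the SD as an error bar. Eng is highest in the Prdm6-deficient aorta, Id2 and Id4 are highest in the control DA, and the Smads overlap between genotypes.

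To place levels of different genes on 1 scale, CPM were divided by exon length in kilobases. By median level in the control DA, Id3 was the most abundant member (307 CPM per kb), followed by Ltbp4 (137), Id2 (125), Id1 (97.1), Bmp4 (65.6) and Smad6 (62.5). Grem1 (5.71) and Nog (4.38) were far below Bmper (26.1) on this scale in the control DA, and in the Prdm6-deficient DA they stood at 0.0473, 0.552 and 5.14. Tgfb3 (34.6) and Tgfb2 (26.9) exceeded Tgfb1 (7.67) in the control DA.

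Between the control vessels 15 members were called, 13 higher and 2 lower in the DA. Of all tested genes, 3.16% were called higher and 2.19% lower. Without the size rule, an adjusted p under 0.01 was reached by 18 members. The 13 were Bmp4, Inhba, Acvr1, Nog, Grem1, Chrdl1, Bmper, Ltbp1, Smad6, Smad9, Id1, Id2 and Id4, and the 2 were Ltbp4 and Smad3. With the animal as a block, in the 6 embryos (12 libraries) that gave both vessels, 12 members were called, and the calls on Bmp4 (log2 0.57, adjusted p = 0.025), Smad6 (log2 0.58, adjusted p = 0.052) and Smad3 (log2 -0.48, adjusted p = 0.0072) were lost. Antagonists and latency binders had a median log2 difference of 0.80 and Id genes of 0.79, against 0.19 over all tested members and -0.01 over all tested genes. Nog was 8.85-fold higher in the control DA (log2 3.15 ± 0.44, adjusted p = 1.1e-05), Ltbp1 2.34-fold, Id2 2.28-fold and Id4 2.0-fold. This comparison uses the same control DA libraries as the genotype comparison of the DA, so the opposite signs of Grem1, Bmper, Nog, Chrdl1, Ltbp1, Id2 and Id4 in the 2 comparisons rest in part on the same samples.

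Between the Prdm6-deficient DA and the Prdm6-deficient aorta, edgeR called 0 of the 43 tested members, where 0.267% of all genes (44 genes) were called in either direction. At an unadjusted p under 0.05 there were 13 members, limma-voom called 0 and DESeq2 called 2, Gdf6 (log2 -1.27) and Nog (log2 -2.0). The edgeR values of these were -1.28 ± 0.27 (adjusted p = 0.016) and -2.0 ± 0.47 (adjusted p = 0.035), with no overlap between groups. Gdf6 was also called without control aorta replicate 4 or without the 4 libraries that stood apart (log2 -1.28 each), and Nog without Prdm6-deficient DA replicate 6 (log2 -2.54). The median log2 difference over the members was -0.05, and a comparison that misses the threshold does not show equal levels.

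Whether the Prdm6 effect differed between the vessels was tested by the interaction of genotype and vessel. In edgeR 10 members were called, all lower, meaning a more negative effect in the DA than in the aorta. Of all tested genes, 1.66% were called lower and 0.917% higher. They were Grem1 (log2 difference -5.83 ± 0.85, adjusted p = 6.3e-05), Nog (-5.15 ± 0.65, adjusted p = 1.2e-05), Bmper (-2.94 ± 0.34, adjusted p = 3.6e-06), Gdf6 (-2.12), Chrdl1 (-1.67), Ltbp1 (-1.27), Inhba (-1.12), Bmp4 (-1.01), Id4 (-0.99) and Id2 (-0.84). They belong to 3 roles, with 5 antagonists and binders, 3 ligands and 2 Id genes, and edgeR called 0 receptors and 0 Smads (4 of each had an unadjusted p under 0.05). DESeq2 and limma-voom also called Smad9, which edgeR placed just outside the rule (-1.58 ± 0.38, adjusted p = 0.011). In Nog, Gdf6 and Ltbp1 both vessels were called with opposite signs. In Grem1, Bmper, Chrdl1, Id2 and Id4 the DA alone was called, and in Bmp4 and Inhba the aorta alone. The smooth muscle markers Myh11, Tagln, Cnn1 and Mylk were also called lower in this interaction.

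Markers of other cells moved with these groups. The smooth muscle sum was 13004 to 22872 CPM in the control DA and 9415 to 11504 without Prdm6 (Myh11, Tagln, Cnn1 and Mylk called lower), against 8090 to 11506 in the control aorta and 8897 to 10641 without Prdm6 (Mylk called higher). The melanocyte sum was 32.2 to 229 CPM in the control DA and 2.44 to 4.96 in the Prdm6-deficient DA, with Dct, Tyrp1, Tyr and Pmel called lower and 3 of 6 markers at 3 counts or fewer in all Prdm6-deficient DA libraries, and 2.17 to 14.8 and 1.20 to 5.09 CPM in the aortas. The brown fat sum was 1.81 to 51.8 CPM in the control DA and 3.07 to 7.17 in the Prdm6-deficient DA (Adipoq and Plin1 called lower). The chondrocyte sum was 59.2 to 174 CPM in the control DA, 259 to 322 in the Prdm6-deficient DA, and 261 to 369 and 245 to 418 CPM in the control and Prdm6-deficient aorta (Acan and Hapln1 called higher in the DA, Hapln1 in the aorta). Lum of the fibroblast list and Elavl4 of the neuron list were called higher in both vessels. Lum was the only fibroblast marker that edgeR called between genotypes. The fibroblast sum was 2475 to 4750 CPM in the control DA and 4009 to 4828 CPM in the Prdm6-deficient DA. In the aorta it ran the other way, from 3923 to 4969 CPM in controls to 3196 to 4104 CPM without Prdm6. Of the macrophage, Schwann cell, cardiomyocyte, epithelium, erythroid, mesothelium and lymphocyte markers, edgeR called 0 between genotypes in either vessel, although cardiomyocyte sums reached 518 CPM and globin sums 137612 CPM in single Prdm6-deficient DA libraries. DESeq2 called the macrophage genes C1qa, Csf1r and Mrc1 in the aorta, where 6 of the 6 markers had an unadjusted p under 0.05 and the sum was 125 to 231 CPM in controls and 73.0 to 102 CPM without Prdm6, and limma-voom called Mrc1. The Schwann cell sum was 20.5 to 174 CPM in the control DA and 58.0 to 119 CPM without Prdm6. Among its genes reported here, limma-voom called Erbb3, Foxd3 and Sox10, and DESeq2 called Foxd3. The part of these cells in the results on Grem1, Nog, Bmper, the Id genes and the other members was not tested. Without the 4 libraries that stood apart, 10 members were called in the DA and 6 in the aorta, of which 8 and 6 were shared with the fit on all libraries.

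Of 88 further genes of the pathway, listed from its known biology with earlier results of these data in view, 74 were tested. In the DA, 7 were higher and 9 lower without Prdm6, with a median log2 fold change of -2.4e-05. In the aorta 4 were higher and 2 lower, with a median of 0.15. Over all tested genes, 2.61% were called higher and 2.82% lower in the DA, and 1.63% and 0.826% in the aorta. Of the 11 tested further ligands, edgeR, DESeq2 and limma-voom called 0 in either vessel, with 1 in the DA and 2 in the aorta at an unadjusted p under 0.05.

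The extracellular regulators held 4 of the genes lower in the DA. Thbs1 (thrombospondin 1, an activator of latent TGF-beta) was at 380 to 791 CPM in the control DA and 88.1 to 123 CPM in the Prdm6-deficient DA (log2 -2.32 ± 0.21, adjusted p = 1.1e-08). Chrdl2, a relative of chordin, was at 2.79 to 12 CPM in every control DA and at 0 in every Prdm6-deficient DA. The BMP antagonist Nbl1 (DAN; log2 -1.05 ± 0.13) and the chordin cofactor Twsg1 (log2 -0.75 ± 0.09) also had no overlap between genotypes in the DA. The 2 extracellular regulators called higher were Sost (sclerostin), at 64.1 to 564 CPM in controls and 748 to 859 CPM without Prdm6 (log2 1.49 ± 0.32, adjusted p = 0.002), and Crim1 (log2 0.61 ± 0.15), whose call was lost in several of the alternative fits. Without the 4 libraries that stood apart the calls on Sost (log2 1.45, adjusted p = 0.014) and Crim1 (log2 0.48, adjusted p = 0.073) were lost, and that on Sost was also lost without the 2 pooled libraries.

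Among response genes, Tgfbi, induced by TGF-beta, was lower in both vessels, at 102 to 291 CPM in the control DA against 19.7 to 34.4 (log2 -2.83 ± 0.24, adjusted p = 3.0e-09) and at 34.0 to 76.7 CPM in the control aorta against 17.2 to 23.9 (log2 -1.30 ± 0.23, adjusted p = 0.00048). Ccn2 (connective tissue growth factor; log2 -1.25 ± 0.16), Ccn1 (log2 -0.79 ± 0.19) and the fibronectin gene Fn1 (log2 -0.79 ± 0.14) were lower in the DA alone by the call rule, and the difference between vessels was called for each. Postn (periostin) was higher in both vessels (log2 1.38 ± 0.17 in the DA and 1.21 ± 0.17 in the aorta), and Hes1 (log2 0.93 ± 0.16) and Snai2 (log2 0.63 ± 0.14) were higher in the DA. By limma-voom, which took the embryo or pool as a random block, the aorta call on Tgfbi was lost. The Snai2 call was lost without the 4 libraries that stood apart (log2 0.49, adjusted p = 0.043) and without Prdm6-deficient DA replicate 1 or 7. The Ccn1 call was lost without Prdm6-deficient DA replicate 1, 5 or 6 or control DA replicate 5. Of the 17 response genes, 3 were higher and 4 lower in the DA, against 2.61% and 2.82% of all tested genes.

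Among the further receptors and intracellular regulators, the type II activin receptor Acvr2a was lower in the DA (log2 -0.61 ± 0.12) and the co-receptor Rgma higher (log2 0.67 ± 0.16). Both calls were lost without the 4 libraries that stood apart (adjusted p = 0.011 each), and that on Rgma also without any 1 of 8 single libraries (Prdm6-deficient DA 1, 2, 5 or 7, control DA 3, 4, 5 or 7), with the series of animal numbers as a covariate and with a replicate block. In the aorta the pseudoreceptor Bambi was lower (log2 -0.66 ± 0.14), and the receptor Neo1 (log2 0.90 ± 0.11) and the Smad corepressor Skil (log2 0.66 ± 0.12) were higher. The Bambi call was lost without Prdm6-deficient aorta 3 or control aorta 1. Zeb2, a Smad-binding repressor, was higher in both (log2 0.63 ± 0.12 in the DA and 0.53 ± 0.12 in the aorta). Its aorta call was lost without any of 7 single libraries (Prdm6-deficient aorta 1, 2, 3 or 5, control aorta 1, 3 or 5) and with a replicate block. In the interaction 9 of the 74 tested further genes were called, Acvr2a, Neo1, Twsg1, Thbs1, Skil, Ccn1, Ccn2, Tgfbi and Fn1. All had the more negative effect in the DA, where 1.66% of all tested genes were called lower and 0.917% higher in the interaction. Between the Prdm6-deficient vessels edgeR and limma-voom called 0 of the further genes, DESeq2 called 2 (Acvr1b and Nbl1), and 20 had an unadjusted p under 0.05.

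**Figure D5:**
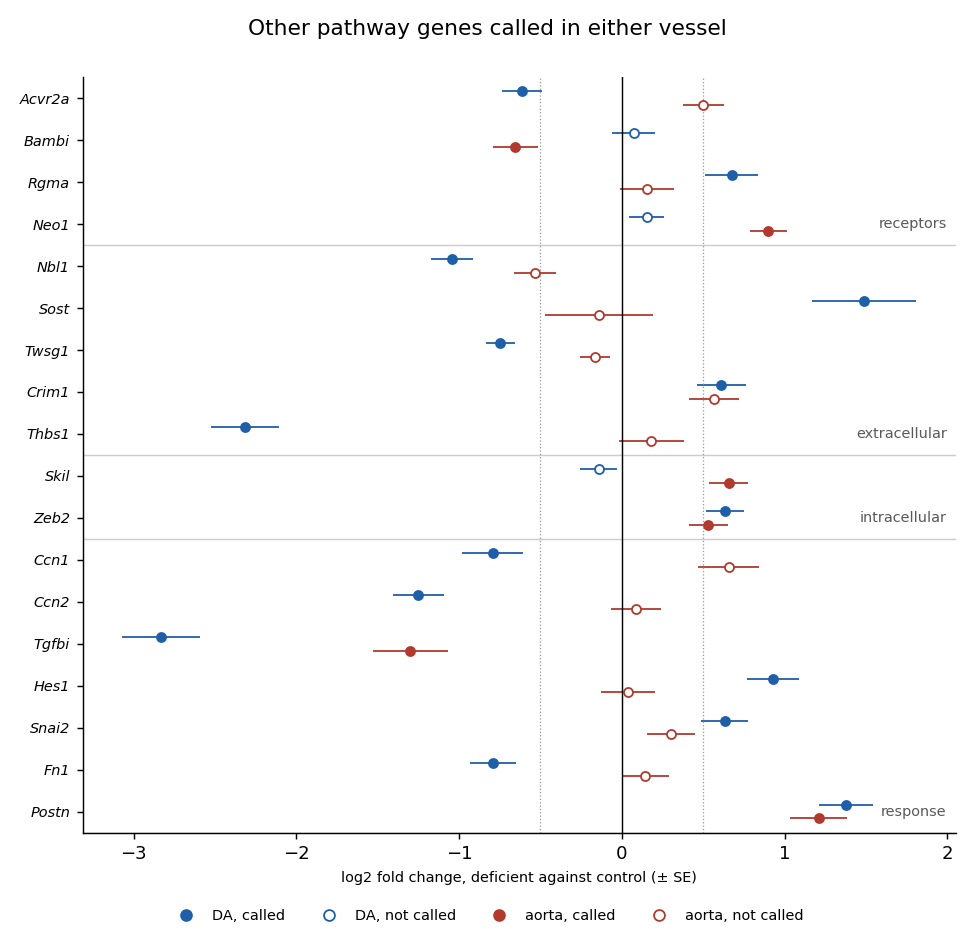
Log2 fold change, Prdm6-deficient against control, of the 18 further pathway genes called in the DA (blue) or the aorta (red), with bars of 1 SE and filled points where called. Tgfbi and Thbs1 have the most negative values in the DA, and Sost and Postn the most positive; Chrdl2 is left out because it was at 0 in every Prdm6-deficient DA.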

How the data were processed

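Vessels were microdissected and sequenced as low-input paired-end RNA-Seq libraries. The authors kept reads with a quality score of at least 20 over at least 90% of bases, removed adapters with tagdust, aligned to mm10 with STAR and quantified genes with RSEM, and deposited expected counts, which split reads that near-identical genes share and were rounded here. One of the 24 labelled samples, Prdm6-deficient DA replicate 4, is not analysed here. No strand setting is given in the sources used here. Gene IDs were matched to GENCODE M21 without version (54723 of 54752), all 44 members among them. Per the sources used here, biological replicates were separate embryos or pools, and replicates from 1 embryo's vessels share an animal.

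Genes were filtered with filterByExpr, scaled by TMM and fitted with edgeR 4.0.16 (quasi-likelihood, R 4.3.3) with 1 mean for each of the 4 groups and a common estimate of spread, and p-values were adjusted by Benjamini-Hochberg over all 16463 tested genes. The study's own threshold on its volcano plot (adjusted p below 0.01, log2 fold change beyond 0.5) served as call rule. The code of the fit was checked on counts simulated from its own estimates of spread, with no embryo or series effects. Such a check cannot test the assumptions of the fit. The main fit had no term for embryos that gave both vessels. Alternatives were DESeq2 1.42.0, limma-voom (limma 3.58.1) with the embryo or pool as a random block, other scaling, no filter, covariates, blocks and left-out libraries. Depth was 15163974 to 22610547 counts, and floors cover counting error only. The members, gene lists and tests were chosen with earlier results of these data known. Values of every sample are given for called members, up to 5 per role by fold change, and for Tgfb1, Tgfbr1, Tgfbr2, Bmpr2, Smad3 and Id1; further pathway genes are named where called between genotypes. Python 3.11.15, pandas 2.3.3 and matplotlib 3.10.9 were used for tables and plots. One gene of the marker lists is not reported here by itself.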

Additional observations from a re-analysis of the deposited data

Results flagged for a closer look

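In 11 of 172 combinations of a tested member and a group (6.4%), 1 library stood far from the rest of its group by Dixon's criterion, which by chance marks about 1 in 20. High libraries were Prdm6-deficient DA replicate 7 for Bmp2 (23.9 CPM, next 7.70) and Bmp5 (2.80 CPM), control DA replicate 1 for Bmp5 (0.836 CPM), Prdm6-deficient DA replicate 6 (174 CPM) and control aorta replicate 5 (172 CPM) for Bmp6, Prdm6-deficient aorta replicate 2 for Tgfbr2 (117 CPM), and Prdm6-deficient aorta replicate 3 for Id1 (123 CPM) and Grem1 (2.59 CPM). Grem1 was also high in control aorta replicate 4 (6.84 CPM, next 2.83), a library with the highest globin and melanocyte sums of its group. Low libraries were control DA replicate 6 for Bmp7 (0 CPM, next 4.74) and Prdm6-deficient aorta replicate 3 for Smad4 (57.4 CPM).

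The effect of Prdm6 loss differed between the DA and the aorta in 10 members by the interaction test in edgeR. The DA effect minus the aorta effect, on the log2 scale, was -5.83 for Grem1, -5.15 for Nog, -2.94 for Bmper, -2.12 for Gdf6, -1.67 for Chrdl1, -1.27 for Ltbp1, -1.12 for Inhba, -1.01 for Bmp4, -0.99 for Id4 and -0.84 for Id2.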

How the results depend on the processing

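Members called numbered 9 in the DA, 8 in the aorta, 15 between control vessels, 0 between Prdm6-deficient vessels and 10 in the interaction. Leaving out each library in turn gave 6 to 11, 5 to 9, 12 to 16, 0 to 1 and 10 to 12, the 5 in the aorta without control aorta replicate 1 or 2. Within the first series of embryos 3 were called in the DA and 0 in the aorta, and within the second 7 and 5; these fits hold 5 and 7 libraries in the DA and 3 and 8 in the aorta, and the first series has 1 control aorta, assumed to vary like the other groups. Between the Prdm6-deficient vessels DESeq2 called 2 and the fit without the 4 libraries that stood apart (an alternative chosen after seeing the data) called 1; the cause was not tested. All other alternatives stayed within 1.5 times of these counts. Replicate numbers did not pair the libraries (correlations of deviations from -0.054 to 0.133), and a replicate block gave 10, 6, 15, 0 and 11 calls, of which 8, 6, 15, 0 and 10 were shared. Of 2405 values of 70 gene results under alternatives, 2195 kept their call or lack of one and 208 lost a call. A call was gained in 1 (Tgfbr2 in the DA) and 1 turned, Id1 in the DA within the first series (0.24, adjusted p = 0.65). All but Tgfb1, Tgfbr1, Tgfbr2, Bmpr2, Smad3 and Id1 in the DA were calls of the main fit, so few could gain one. Members outside the 70 did gain calls: DESeq2 called 11 in the DA, 9 of them shared. The 2405 also count fits that left out libraries of groups not compared. Genes with few reads, such as Nog, Bmp5 and Grem1 outside the control DA, are limited by depth.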
